A study of Mus musculus with 8 samples.

Results

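The genes that write, maintain and remove DNA methylation were examined for H3K27me3, the repressive histone mark of Polycomb repressive complex 2, in primordial germ cells (PGCs) of the mouse, from which eggs and sperm derive. There are 9 of them among the 21352 genes of the files, chosen by symbol: Dnmt1, Uhrf1, Dnmt3a, Dnmt3b, Dnmt3l, Tet1, Tet2, Tet3 and Tdg. All 9 lie on autosomes, which hold 20368 of the listed genes. Every member was measured in every library, and all 9 passed the minimum of 20 reads per comparison.

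Chromatin was profiled by low-input CUT&RUN, in which an antibody tethers a nuclease to its target and the cut DNA is sequenced. IgG, an antibody with no chromatin target, gives the background of cutting. The 5 libraries analysed are H3K27me3 of E12.5 females, H3K27me3 of E11.5 females, IgG of E11.5 males, IgG of E12.5 females and IgG of E13.5 females, where E is the embryonic day. All embryos came from B6 x Cast hybrids, with the genotype Xist KO/+:Oct4-eGFP+/- in females and Xist KO/Y:Oct4-eGFP+/- in males. Both sexes therefore carry an Xist knockout allele and the Oct4-eGFP reporter, and no wild-type group is present. Sorted cells of several embryos of the same sex were pooled, so values of single embryos are not resolved. Each group has 1 library here; another 3 labelled H3K27me3 samples were not analysed here. At E11.5 the H3K27me3 library is female and its IgG library is male, so antibody and sex cannot be told apart at that stage.

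Reads assigned to an allele and to an autosomal gene numbered 5020062 and 2356356 in the H3K27me3 libraries of E12.5 and E11.5. The IgG libraries held 1357583 (E11.5), 1515532 (E12.5) and 5705401 (E13.5) such reads. As a check of the mark, all 32 Hox genes tested, classical Polycomb targets, were higher than IgG by 2-fold or more at E12.5 (median ratio 8.04). None of 22 housekeeping genes was higher by 2-fold, and 16 were lower by 2-fold (median 0.42). Of the germ-cell marker genes, 0 of 12 tested were higher and 8 were lower (median ratio 0.48), whereas 11 of 11 somatic gonad markers were higher (median 4.46, range 2.41 to 9.83). Of 5 blood markers tested, 2 were higher and 0 were lower, and of 6 endothelial markers, 1 was higher and 1 was lower. Among all autosomal genes tested at E12.5, 16.4% were higher and 32.9% were lower, with a median ratio of 0.67. A repressive mark is not expression, and the part of other cells in a sorted pool was not tested.

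DNA methylation in mammals is mostly methylation of cytosine in CG dinucleotides. DNMT3A and DNMT3B place it de novo, with DNMT3L as a catalytically inactive cofactor. DNMT1 copies it after replication, guided to hemimethylated DNA by UHRF1. The TET enzymes oxidise 5-methylcytosine, and TDG is a glycosylase that excises the most oxidised forms. Mouse PGCs are known for erasing most of their DNA methylation at about the stages sampled, and female germ cells regain it only in growing oocytes after birth.

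The starts of 5 of the genes are shown because they contrast in CG content and in the mark: Tet3, Dnmt3l and Dnmt3b were higher than IgG in at least 1 comparison, and Tdg and Dnmt1 were not. The bases lie upstream of the outermost start site in the RefSeq promoter table (GRCm38.p6, the mm10 assembly), printed 5′ to 3′ on the gene's strand, with each CG in capitals. For Dnmt3b and Tdg the stretch stops where the annotated gene begins. For Tet3, the start site lies within the annotated gene span.
Tet3 (chr6:83441679-83441928, minus strand): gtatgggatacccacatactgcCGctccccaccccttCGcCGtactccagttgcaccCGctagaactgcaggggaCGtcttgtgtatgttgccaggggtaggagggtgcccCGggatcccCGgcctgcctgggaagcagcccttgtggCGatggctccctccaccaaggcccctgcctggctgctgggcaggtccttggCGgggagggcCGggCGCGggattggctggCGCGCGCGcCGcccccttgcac
Dnmt3l (chr10:78042037-78042286, plus strand): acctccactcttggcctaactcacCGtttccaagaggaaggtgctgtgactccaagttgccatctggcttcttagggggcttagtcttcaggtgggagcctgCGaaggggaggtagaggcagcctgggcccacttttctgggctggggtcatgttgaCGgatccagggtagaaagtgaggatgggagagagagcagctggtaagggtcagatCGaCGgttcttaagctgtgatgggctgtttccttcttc
Dnmt3b (chr2:153649199-153649410, plus strand): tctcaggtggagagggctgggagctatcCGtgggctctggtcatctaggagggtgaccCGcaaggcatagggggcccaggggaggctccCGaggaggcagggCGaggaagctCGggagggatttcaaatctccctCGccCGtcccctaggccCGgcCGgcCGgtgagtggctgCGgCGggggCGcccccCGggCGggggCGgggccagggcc
Tdg (chr10:82629588-82629813, plus strand): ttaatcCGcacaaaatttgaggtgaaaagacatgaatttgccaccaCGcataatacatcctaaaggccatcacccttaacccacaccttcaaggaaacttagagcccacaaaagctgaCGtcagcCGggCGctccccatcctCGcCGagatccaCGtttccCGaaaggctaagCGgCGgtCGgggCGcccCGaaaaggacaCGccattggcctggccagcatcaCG
Dnmt1 (chr9:20959889-20960138, minus strand): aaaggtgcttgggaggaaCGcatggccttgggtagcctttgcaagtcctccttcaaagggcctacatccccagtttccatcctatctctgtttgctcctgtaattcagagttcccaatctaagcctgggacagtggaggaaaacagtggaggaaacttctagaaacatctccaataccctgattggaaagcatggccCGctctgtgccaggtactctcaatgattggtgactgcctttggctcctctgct
These stretches hold 17 CGs in 250 bases for Tet3, 5 in 250 for Dnmt3l, 16 in 212 for Dnmt3b, 16 in 226 for Tdg and 2 in 250 for Dnmt1. Dnmt1 has other annotated start sites downstream, and its most CG-rich window of 300 bases holds 33 CGs.

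Tet3 carried by far the most H3K27me3 reads of the 9 genes. The level of a gene is its allele-assigned reads scaled to 1000000 autosomal reads of the library (RPM). Tet3 (chr6:83362373-83457208), which encodes the TET enzyme of the zygote, had 1328 RPM at E12.5 and 1361 RPM at E11.5 with H3K27me3, against 115 RPM in E11.5 IgG, 152 RPM in E12.5 IgG and 118 RPM in E13.5 IgG. Both H3K27me3 libraries lay far above all 3 IgG libraries. Both lay above all 3, by any margin, for 24.7% of 16599 autosomal genes. At E12.5 the H3K27me3 to IgG ratio was 8.75 (95% counting interval 7.67 to 10.0), from 6667 reads with H3K27me3 and 230 with IgG. At E11.5 it was 11.8 (10.1 to 14.0), from 3208 and 156 reads. Among all autosomal genes tested, Tet3 ranked at the 99.3 percentile at E12.5 and at the 99.0 percentile at E11.5.

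**Figure D1:**
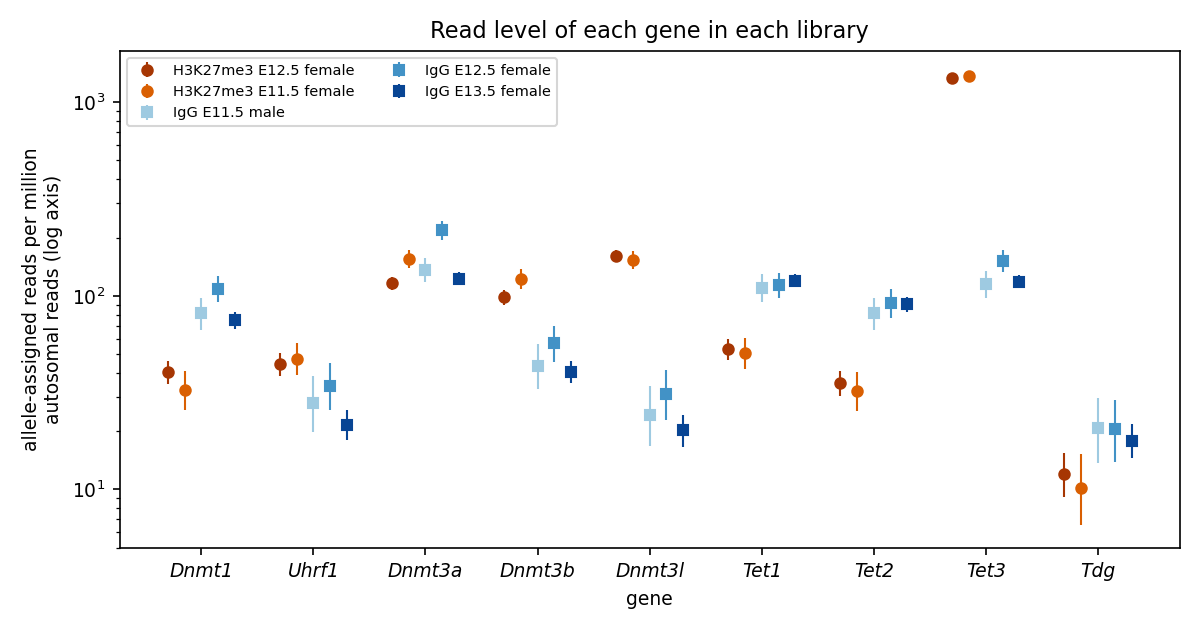
Level of each gene (allele-assigned RPM, log axis) in the 2 H3K27me3 libraries (circles) and the 3 IgG libraries (squares), with 95% counting intervals. Tet3 stands at 1328 RPM (E12.5) and 1361 RPM (E11.5) with H3K27me3, and Dnmt1, Tet1, Tet2 and Tdg lie below all of their IgG values, as do 51.7% of 16599 autosomal genes.

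Dnmt3l was the other gene with a strong excess at both stages. Dnmt3l (chr10:78042287-78063622) had 161 RPM at E12.5 and 153 RPM at E11.5 with H3K27me3, against 24.3, 31.0 and 20.2 RPM in IgG of E11.5, E12.5 and E13.5. The groups did not overlap, and 24.7% of 16599 autosomal genes likewise had both H3K27me3 libraries above all 3 IgG libraries. The ratio was 5.20 (3.87 to 7.13) at E12.5 and 6.29 (4.39 to 9.27) at E11.5. Per kilobase of the gene length listed in the files, the E12.5 H3K27me3 level was 13.7 RPM for Tet3 and 7.43 RPM for Dnmt3l, the first and second of the 9 genes. In E12.5 IgG these levels per kilobase were 1.57 RPM for Tet3 and 1.43 RPM for Dnmt3l, within the members' range of 0.98 RPM for Tdg to 2.07 RPM for Dnmt1.

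The de novo enzyme genes themselves lay lower. Dnmt3b (chr2:153649411-153687730) had 98.6 RPM at E12.5 and 123 RPM at E11.5 with H3K27me3, against 43.5, 56.7 and 40.5 RPM in IgG of E11.5, E12.5 and E13.5. Its ratio was 1.74 (1.38 to 2.21) at E12.5, under the 2-fold used as a call, and 2.82 (2.13 to 3.80) at E11.5, past it. Both H3K27me3 values exceeded every IgG value, as they did for 24.7% of 16599 autosomal genes. Dnmt3a (chr12:3801559-3914443) had 116 RPM at E12.5 and 155 RPM at E11.5 with H3K27me3, against 136, 218 and 123 RPM in IgG of E11.5, E12.5 and E13.5. Its groups overlapped, with ratios of 0.53 (0.46 to 0.61) at E12.5 and 1.14 (0.95 to 1.37) at E11.5. The counting interval covers sampling of reads only, since no group has a replicate.

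Of the maintenance pair, Uhrf1 lay slightly above IgG and Dnmt1 below it. Uhrf1 (chr17:56303337-56323486) had 44.2 RPM at E12.5 and 47.1 RPM at E11.5 with H3K27me3, against 28.0, 34.3 and 21.6 RPM in IgG of E11.5, E12.5 and E13.5. Both H3K27me3 values were above all IgG values, a pattern of 24.7% of 16599 autosomal genes, but the margin was small. The ratio was 1.29 (0.95 to 1.78) at E12.5, an interval that includes 1, and 1.68 (1.15 to 2.50) at E11.5. Dnmt1 (chr9:20907206-20959888) had 40.2 RPM at E12.5 and 32.7 RPM at E11.5 with H3K27me3, against 81.0, 109 and 74.7 RPM in IgG of E11.5, E12.5 and E13.5. Its ratio of 0.37 (0.30 to 0.46) at E12.5 was the lowest of the 9 genes, and at E11.5 it was 0.40 (0.30 to 0.54). Of all autosomal genes tested, 32.9% were lower than IgG by 2-fold or more at E12.5 and 32.2% at E11.5.

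Tet1, Tet2 and Tdg also lay below IgG. Tet1 (chr10:62804570-62887469), an oxidising enzyme with a known role in PGCs, had 53.0 RPM at E12.5 and 50.5 RPM at E11.5 with H3K27me3, against 110, 113 and 120 RPM in IgG of E11.5, E12.5 and E13.5. Tet2 (chr3:133463677-133545136) had 35.3 RPM at E12.5 and 32.3 RPM at E11.5 with H3K27me3, against 81.0, 91.7 and 90.3 RPM with IgG. Tdg (chr10:82629814-82650799) had 11.95 RPM at E12.5 and 10.2 RPM at E11.5 with H3K27me3, against 20.6, 20.5 and 17.9 RPM with IgG. The levels of these 3 genes did not overlap between the antibodies, but the counting intervals of the Tdg levels did. At E12.5 those intervals were 9.1 to 15.4 RPM with H3K27me3 and 13.9 to 29.0 RPM with IgG. By its E12.5 ratio, Tdg stood at the 43.3 percentile of all genes tested. Both H3K27me3 libraries lay below all 3 IgG libraries for 51.7% of 16599 autosomal genes. The E12.5 ratios were 0.47 (0.38 to 0.57) for Tet1, 0.38 (0.31 to 0.48) for Tet2 and 0.58 (0.37 to 0.93) for Tdg. At E11.5 they were 0.46 (0.36 to 0.59) for Tet1, 0.40 (0.29 to 0.54) for Tet2 and 0.49 (0.27 to 0.88) for Tdg. The Tet genes thus spread from 0.38 for Tet2 to 8.75 for Tet3 at E12.5, nearly the full range of the members.

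The order of the E12.5 ratios was Tet3, Dnmt3l, Dnmt3b, Uhrf1, Tdg, Dnmt3a, Tet1, Tet2 and Dnmt1. The counting intervals of Tet3 and Dnmt3l did not overlap each other, and neither did those of Dnmt3l and Dnmt3b. Dnmt3b and Uhrf1 overlapped, and so did each neighbouring pair from Tdg to Dnmt1. The intervals of Uhrf1 (0.95 to 1.78) and Tdg (0.37 to 0.93) only just missed each other.

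**Figure D2:**
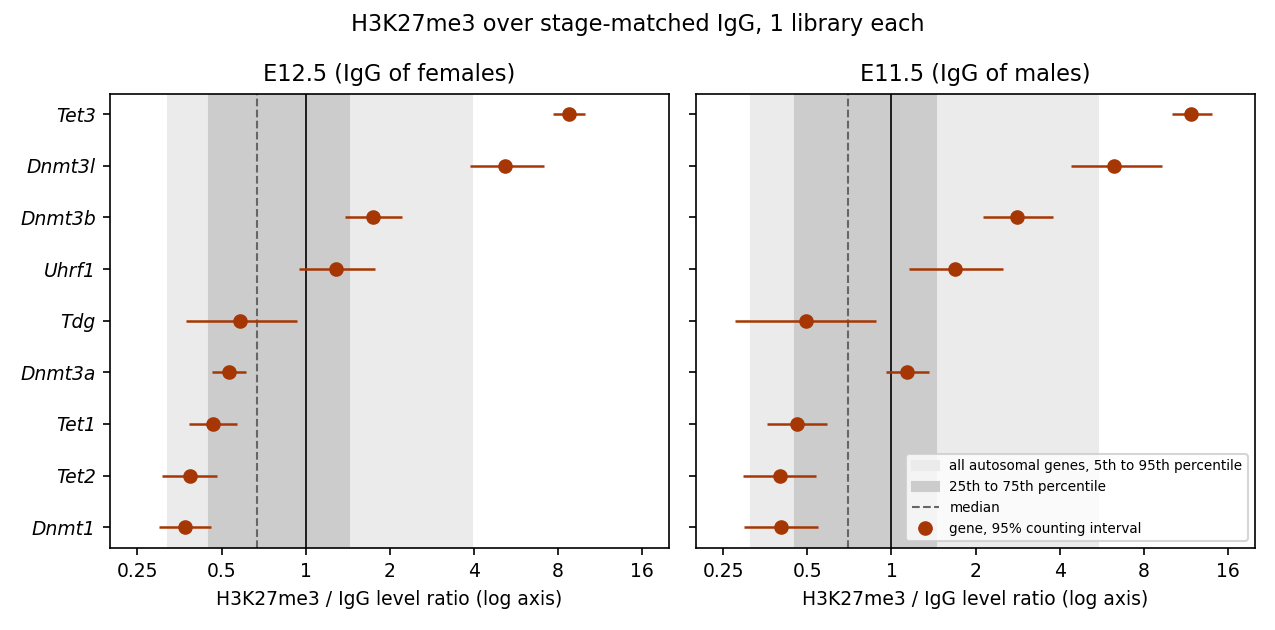
H3K27me3 to IgG level ratio of each gene (log axis) at E12.5 and at E11.5 with 95% counting intervals, over the spread of all autosomal genes tested in grey. Tet3 and Dnmt3l lie beyond the 95th percentile of all genes at both stages, and Dnmt1, Tet1 and Tet2 lie below the median.

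Calls among the members can be read against those among all genes. With a call at 2-fold or more, 2 of 9 members (Tet3 and Dnmt3l) were higher at E12.5, where 16.4% of 16526 autosomal genes were, and 3 (Dnmt1, Tet1 and Tet2) were lower, where 32.9% were. At E11.5, 3 members (Tet3, Dnmt3l and Dnmt3b) were higher, against 17.9% of 15050 genes, and 4 (Dnmt1, Tet1, Tet2 and Tdg) were lower, against 32.2%. Most genes lay below 1 in this ratio: the median over all genes was 0.67 (-0.58 on the log2 scale) at E12.5 and 0.70 (-0.52) at E11.5. Relative to that median, no member was lower by 2-fold at either stage; the values for Dnmt1 became 0.55 at E12.5 and 0.58 at E11.5. Dnmt1 stood at the 11.1 percentile of all genes at E12.5 and Tet2 at the 13.3 percentile. The members' median ratio was 0.58 at E12.5 and 1.14 at E11.5.

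The deepest IgG library, from E13.5 females, gave narrower intervals. Against it, 4 members were higher at E12.5, namely Tet3 at 11.2 (10.4 to 12.2), Dnmt3l at 7.995 (6.57 to 9.81), Dnmt3b at 2.44 (2.08 to 2.86) and Uhrf1 at 2.05 (1.64 to 2.58), where 17.0% of all genes were. Tet1 and Tet2 were lower, where 28.0% of genes were, and Dnmt1 was at 0.54 (0.45 to 0.64). At E11.5 the same 4 genes were higher, where 17.7% of genes were, and Dnmt1, Tet1 and Tet2 were lower, where 30.4% were. Stage differs in these pairs, 1 or 2 days apart.

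In levels rather than calls, 4 members (Tet3, Dnmt3l, Dnmt3b and Uhrf1) had both H3K27me3 libraries above all 3 IgG libraries, a pattern of 24.7% of 16599 autosomal genes. Another 4 (Dnmt1, Tet1, Tet2 and Tdg) had both below all 3, as had 51.7% of genes. Dnmt3a alone of the 9 overlapped. The smallest excess over IgG, the lower H3K27me3 level over the highest IgG level, was 8.75 for Tet3, 4.93 for Dnmt3l, 1.74 for Dnmt3b and 1.29 for Uhrf1.

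Between E12.5 and E11.5 the H3K27me3 level of these genes changed by less than 2-fold, as did that of most genes. Levels are scaled within each library, so a change common to all genes would not show. No member was higher or lower by 2-fold in H3K27me3, where 1.60% of genes were higher and 1.23% were lower. Tet3 was at 0.98 (0.94 to 1.02) times its E11.5 level and Dnmt3l at 1.05 (0.93 to 1.198). The intervals of 2 genes lay below 1: Dnmt3a at 0.75 (0.65 to 0.85) and Dnmt3b at 0.80 (0.69 to 0.93). The median over all genes was 1.01. The ratio of Dnmt1 was 1.23 (0.94 to 1.62), the highest of the 9.

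The IgG libraries give the size of differences without the mark. Between E13.5 and E12.5 IgG, no member differed by 2-fold, where 5.03% of genes were higher and 7.45% were lower. The ratios of E13.5 to E12.5 lay between 0.56 (Dnmt3a) and 1.06 (Tet1), with an all-gene median of 0.91. Over the 3 IgG libraries the highest level was 1.09 times the lowest for Tet1 and 1.77 times for Dnmt3a. Between single pairs of IgG libraries, Dnmt3a was at 0.56 (E13.5 to E12.5), 1.60 (E12.5 to E11.5) and 0.90 (E13.5 to E11.5). Dnmt3b was at 0.71, 1.31 and 0.93 in the same pairs. These libraries differ in stage, and the E11.5 library also in sex. Whether the H3K27me3 changes of Dnmt3a and Dnmt3b between the stages exceed such differences was not tested.

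The nearest genes of Tet3 lacked its excess, whereas those of Dnmt3l had one of similar size. Bola3, 2.24 kb from Tet3, had an E12.5 ratio of 0.95 (0.67 to 1.37), and Dguok, 23.0 kb away on the other side, had 0.81 (0.56 to 1.19). Within 250 kb of Tet3, 3 of 9 tested genes were higher and 1 was lower, and of Dnmt3l, 3 of 9 were higher and 3 were lower. Among all autosomal genes tested, 16.4% were higher and 32.9% were lower. Further out from Tet3, Actg2, a smooth-muscle actin gene, was at 4.87 (3.44 to 7.099). Next to Dnmt3l, Aire, a regulator of thymic self-antigen expression, was at 6.56 (4.43 to 10.1) and Icosl, a T-cell costimulatory ligand, at 5.86 (4.04 to 8.83). Aire and Dnmt3l overlap by 1.32 kb in the annotation, so some of their reads may come from the same bases.

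Uhrf1 and Dnmt3b, with their borderline values, each had a marked gene as one nearest neighbour. Within 250 kb of Uhrf1, 4 of 14 tested genes were higher and 5 were lower at E12.5, and within 250 kb of Dnmt3b, 1 of 7 was higher and 2 were lower. The shares over all autosomal genes tested were 16.4% higher and 32.9% lower. Arrdc5, 3.05 kb from Uhrf1, was at 9.59 (5.55 to 18.2), Plin3 at 5.30 (4.05 to 7.07) and Ticam1 at 2.17 (1.43 to 3.45), whereas Kdm4b, a histone demethylase gene 2.48 kb away on the other side, was at 0.38 (0.32 to 0.45). The position of the mark within Uhrf1 cannot be read from counts per gene. Commd7, 16.6 kb from Dnmt3b, was at 3.29 (2.35 to 4.74) at E12.5 and 8.20 (5.32 to 13.3) at E11.5, and Mapre1, 53.6 kb away, was at 0.38 (0.27 to 0.54) at E12.5.

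**Figure D3:**
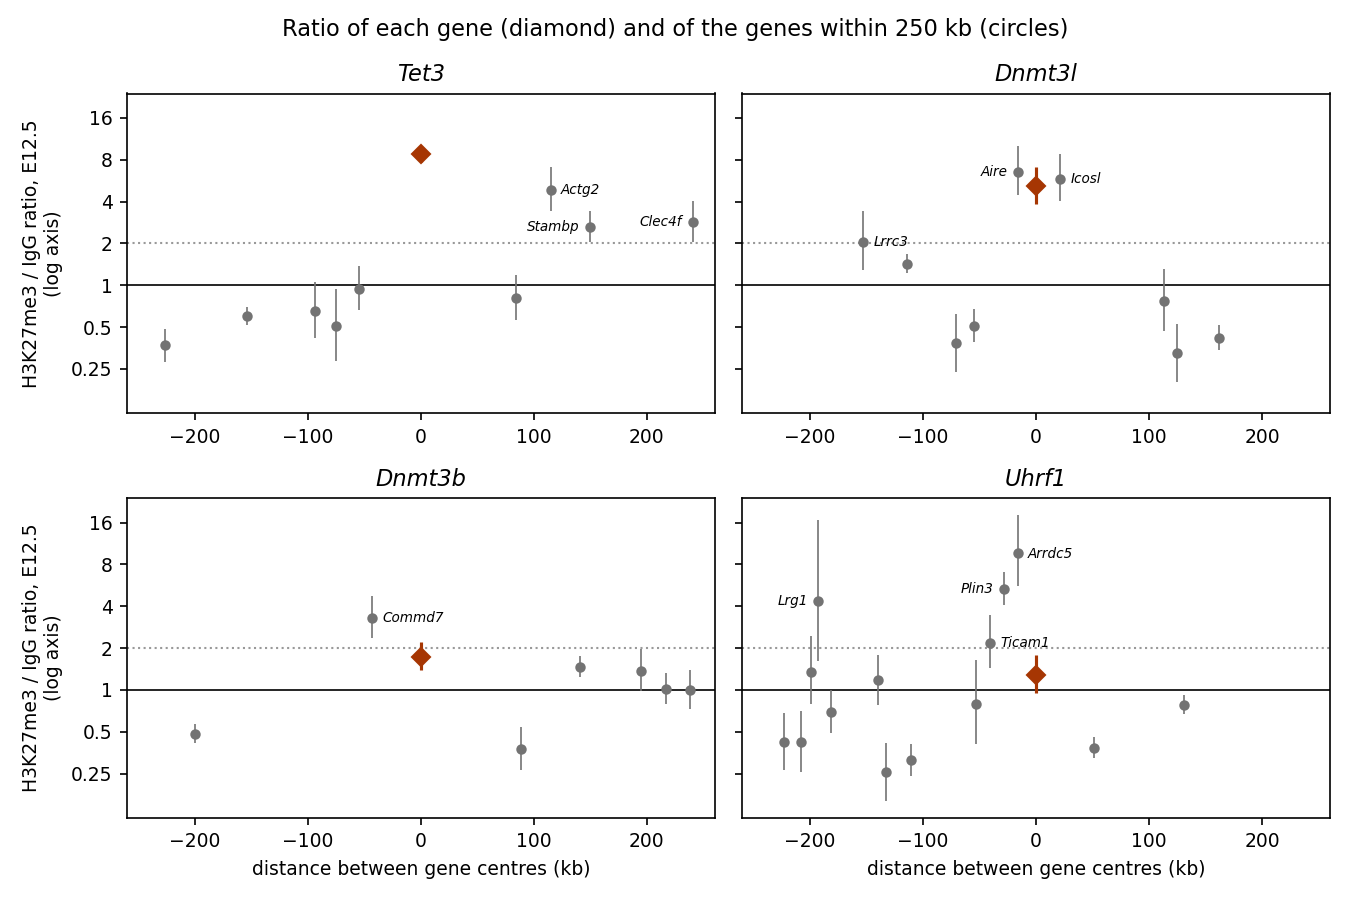
E12.5 H3K27me3 to IgG ratio (log axis, 95% counting intervals) of Tet3, Dnmt3l, Dnmt3b and Uhrf1 (diamonds) and of the tested genes within 250 kb (circles), by distance between gene centres in kb, with genes above 2 (dotted line) named. Aire and Icosl next to Dnmt3l are at 6.56 and 5.86, and the nearest genes of Tet3 are below 1.

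Around Dnmt1, Tet1, Tet2, Dnmt3a and Tdg, 0 tested genes within 250 kb were higher at E12.5. Among all autosomal genes tested, 16.4% were higher and 32.9% were lower. Within 250 kb of Dnmt1, 0 of 15 tested genes were higher and 12 were lower at E12.5; its nearest genes were Eif3g at 0.38 (0.16 to 0.94) and S1pr2 at 0.40 (0.23 to 0.70). Around Tet1, 0 of 9 were higher and 6 were lower, with Ccar1 at 0.48 and Slc25a16 at 0.44. Around Dnmt3a and around Tdg, 0 of 4 were higher and 3 were lower in each case. Dtnb, beside Dnmt3a, was at 0.41 (0.36 to 0.48). Pomc, on the other side of Dnmt3a, was at 0.52 (0.26 to 1.08). At E11.5, Pomc was at 2.19 (0.79 to 7.50), from 19 reads with H3K27me3 and 5 with IgG. At E12.5, Ppa2 beside Tet2 was at 0.39 and Cxxc4, 691 kb away, at 4.08 (2.62 to 6.70). Glt8d2, at 0.57 (0.43 to 0.76), overlaps Tdg by 0.37 kb, and 1190007I07Rik had too few reads to test.

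Genes whose profile over the 5 libraries was most like that of Tet3, by Euclidean distance of centred log2(RPM + 1) values among 14604 autosomal genes, were Aqp5, Thbs2 and Hoxb13, at distances of 0.14, 0.20 and 0.23. Their E12.5 ratios were 8.85, 9.14 and 9.96. For Dnmt1 they were Zfp28, Slc12a4 and Entpd7, at distances of 0.06, 0.07 and 0.08, with ratios of 0.36 each. The libraries of these ratios were used to choose the genes, so ratios close to those of Tet3 and Dnmt1 follow from the choice.

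CG content of the available promoter windows did not order the members by their mark. RefSeq promoter windows of 300 bases were available for all 9 genes, 16 windows in all, and CG, which reads the same on both strands, was counted in each. Over all 32851 windows the median was 7 CGs, and 94.6% held at least 1. The Dnmt3l windows held 6, 4 and 3 CGs, below that median, while the Tet3 window held 22, more than 76.9% of windows. The only Tet3 window lies inside the annotated gene span. Windows of one gene can differ widely, as for Dnmt1, with 2, 12 and 33 CGs. Tet2, one of the lowest genes for the mark, had the most CG-rich window of the 9 genes, with 57 CGs, and the window of Tdg held 26. Among 12985 tested genes with a window, 8.57% of those whose most CG-rich window had an observed over expected CG ratio of at least 0.6 were higher at E12.5 (median H3K27me3 to IgG ratio 0.51), against 24.7% of the others (median 1.132). These counts run over whole genes, so they do not show the mark at the start site itself.

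Both parental alleles of Tet3 carried the excess. The files split reads into a first and a second allele, and which strain each stands for is not given in the sources used here. At E12.5 the ratio was 8.84 (7.32 to 10.8) on the first allele and 8.67 (7.21 to 10.5) on the second. At E11.5 the ratios were 12.1 (9.62 to 15.3) and 11.6 (9.25 to 14.8). For Dnmt3l the ratios were 5.43 (3.66 to 8.41) and 4.90 (3.16 to 8.02) at E12.5, and 6.91 (4.15 to 12.3) and 5.69 (3.45 to 10.0) at E11.5. Dnmt3b had 1.74 on the first allele and 1.73 on the second at E12.5.

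The share of reads on the second allele stayed near equality for most members. Each share was compared with the pooled autosomal share of its library, 50.8% to 51.6%, by an exact two-sided binomial test with Benjamini-Hochberg adjustment over all autosomal genes. In E12.5 H3K27me3, 3 members were called toward the first allele, where 7.98% of genes were. They were Uhrf1 at 28.4% (exact 95% interval 22.5% to 34.8%, adjusted p = 3.57e-10, exact binomial), Dnmt3l at 42.2% (38.7% to 45.6%, adjusted p = 8.42e-06) and Dnmt3b at 44.0% (39.6% to 48.5%, adjusted p = 0.016). Tet3 was at 50.4% (49.2% to 51.6%) from 6667 reads. In E11.5 H3K27me3, Tet3 at 48.4% (46.7% to 50.2%, adjusted p = 0.0051, exact binomial) was called toward the first allele, where 4.98% of genes were, and Tdg at 83.3% (62.6% to 95.3%, adjusted p = 0.018) toward the second, where 6.69% were. The call of Tet3 was lost with an expected share of 50% (adjusted p = 0.36, exact binomial), and so was that of Dnmt3b at E12.5 (adjusted p = 0.054).

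In IgG, a lean of the same kind was seen in every library for Tdg, but not in every library for Dnmt3b or Dnmt3l. Dnmt3b, at 44.0% in E12.5 H3K27me3, was at 54.2%, 44.2% and 43.3% in IgG of E11.5, E12.5 and E13.5. Dnmt3l, at 42.2% in E12.5 H3K27me3, was at 51.5%, 44.7% (30.2% to 59.9%, from 47 reads) and 50.4% in the same IgG libraries. None of these IgG values passed the test. Tdg leaned to the second allele in every library, with 61.7% of 60 reads at E12.5 and 83.3% of 24 reads at E11.5 with H3K27me3, against 75%, 77.4% and 69.6% in IgG of E11.5, E12.5 and E13.5. Besides the E11.5 H3K27me3 value, the E13.5 IgG value, from 102 reads, passed the test (adjusted p = 0.0040, exact binomial), where 5.84% of genes were called toward the second allele. The 6 other genes within 250 kb of Tdg pooled to 67.9% and 61.0% with H3K27me3 at E12.5 and E11.5, against 62.5% to 64.8% with IgG. The lean to the second allele was thus also present without the mark and in the surrounding genes. In E11.5 and E12.5 IgG no member passed, where 3.66% and 3.46% of genes did, and 2 and 3 members had an unadjusted p under 0.05.

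Uhrf1 leaned to the first allele most clearly in the E12.5 H3K27me3 library. It stood at 28.4% at E12.5 and 43.2% (33.9% to 53.0%) at E11.5 with H3K27me3, against 57.9% (40.8% to 73.7%), 34.6% (22.0% to 49.1%) and 48.0% (38.9% to 57.2%) in IgG of E11.5, E12.5 and E13.5. The E12.5 IgG library, with 52 reads, leaned the same way. Genes within 250 kb of Uhrf1 pooled to 43.8% (42.0% to 45.5%) in E12.5 H3K27me3 and 51.9% (48.6% to 55.3%) in E12.5 IgG.

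Direct comparisons of allele counts between libraries, by Fisher's exact test with the same adjustment, compare libraries and not conditions. At E12.5, 0 of 9 members differed between H3K27me3 and IgG, adjusted or at an unadjusted p under 0.05, where 2.35% of genes passed after adjustment. At E11.5 the counts were again 0 and 0, where 2.17% passed. Between E12.5 and E11.5 H3K27me3, 0 members passed, where 0.530% of genes did; Uhrf1 had an unadjusted p of 0.0094 (adjusted p = 0.49, Fisher's exact test). Against the deeper E13.5 IgG library, Uhrf1 was the 1 member that differed in E12.5 H3K27me3, at 28.4% against 48.0% (adjusted p = 0.0097, Fisher's exact test), where 6.12% of genes passed. Between E12.5 H3K27me3, with 222 reads, and E12.5 IgG, with 52 reads, no difference of Uhrf1 was detected (28.4% against 34.6%, unadjusted p = 0.40, Fisher's exact test).

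**Figure D4:**
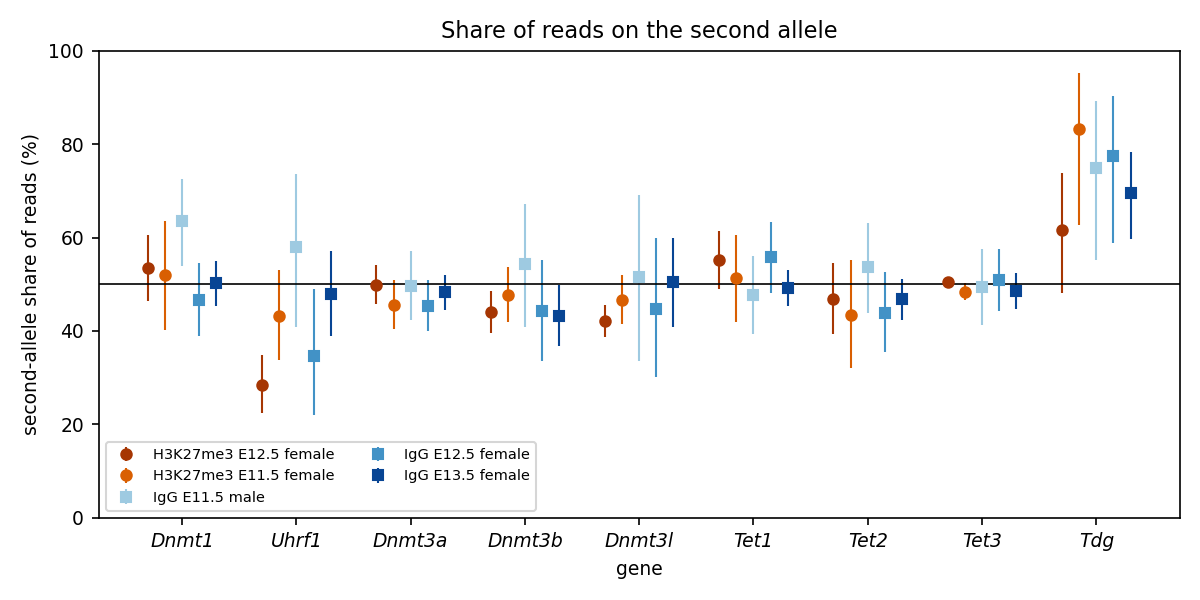
Share of reads on the second allele (%) for each gene in the 2 H3K27me3 libraries (circles) and the 3 IgG libraries (squares), with exact 95% intervals and a line at 50%. Tdg lies above 50% in all 5 libraries, Uhrf1 reaches 28.4% in E12.5 H3K27me3, and Tet3 lies between 48.4% and 50.9%.

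Most other genes of the methylation pathway were not called higher than IgG, and neither were most genes. Among all autosomal genes tested, 16.4% were higher and 32.9% lower at E12.5, and 17.9% and 32.2% at E11.5. Among other writers and regulators of methylation, 2 of 21 tested genes were higher at E12.5 and 10 were lower, with a median ratio of 0.51; at E11.5, 3 of 19 were higher and 9 were lower. The higher genes at E12.5 were Zfp57, which protects methylation at imprints, at 3.38 (1.37 to 10.8), from 56 reads with H3K27me3 and 5 with IgG, and Ctcfl, a germline paralogue of Ctcf, at 3.15 (2.28 to 4.46). Dnmt3c and Spocd1 were not analysed here. Among readers of CpG sites, 1 of 12 was higher and 4 were lower at E12.5, and 1 and 3 were at E11.5. The higher gene at E12.5 was Cxxc4, which encodes a CXXC zinc-finger protein, at 4.08 (2.62 to 6.70).

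Among deaminases and base excision repair genes, which include TDG's downstream partners, 2 of 19 were higher and 8 were lower at E12.5 (median 0.58); at E11.5, 4 of 17 were higher and 7 were lower. Gadd45g was at 25.4 at E11.5, with an interval (4.32 to 1024) too wide to give the size of the excess. At E12.5 it was at 2.85 (1.31 to 7.35), from 66 reads with H3K27me3 and 7 with IgG. Parp1, a DNA-damage sensor, was at 0.27 (0.21 to 0.35) and Nthl1, a DNA glycosylase, at 0.26 (0.13 to 0.52). Of the genes that supply the methyl donor or TET cofactors, 0 of 13 were higher and 10 were lower (median 0.41), with Shmt2 at 1.35 (0.76 to 2.54) and Shmt1 at 0.30 (0.20 to 0.45). At E11.5, 1 of 12 was higher, namely Shmt2 at 2.93 (1.52 to 6.21), and 6 were lower. All these counts can be read against the 16.4% of genes higher and 32.9% lower at E12.5, and 17.9% and 32.2% at E11.5.

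Germline genes that DNA methylation is known to silence in somatic cells were close to the typical gene. At E12.5, 2 of 15 were higher and 4 were lower, with a median ratio of 0.69 against 0.67 over all genes. Tex101, a germ-cell surface protein gene, was at 3.60 (2.16 to 6.43) and Slc25a31 at 2.48 (0.98 to 8.03), from 41 reads with H3K27me3 and 5 with IgG. Tex14, required for intercellular bridges of germ cells, was at 0.49 (0.37 to 0.65), and Piwil2, a piRNA pathway gene, at 0.45 (0.35 to 0.59). At E11.5, 1 of 15 was higher and 3 were lower, and Slc25a31 was at 1.15 (0.47 to 3.11). Among all autosomal genes tested, 16.4% were higher and 32.9% lower at E12.5, and 17.9% and 32.2% at E11.5.

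Summed over the 9 members, the E12.5 ratio was 2.29, but 6667 of the 9479 H3K27me3 reads came from Tet3. Without Tet3 the other 8 genes pooled to 0.83 at E12.5 and 1.15 at E11.5. A single gene therefore set the pooled value of the group.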

How the data were processed

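The authors deposited, per sample, a table without a header that lists each gene with its chromosome, its length, raw read counts of a first and a second allele and the second allele's fraction. The deposited fraction equals the second-allele count over the sum of both counts. Per the submitters' processing notes, the build was mm10 and the tools named include featureCounts, Bowtie2 2.4.2, Trim Galore 0.6.6, GATK and SAMtools 1.11, with no role given. The sources used here do not give how alleles were assigned, whether duplicates were removed or which strain each allele is. Per the labels' protocols, libraries were amplified for 15 cycles, so reads are not independent molecules, and all intervals and tests of reads cover counting error only. Reads that cannot be assigned to an allele are absent from these counts, so a gene's level also depends on its number of sequence differences.

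Levels were reads per 1000000 reads of chromosomes 1 to 19 (RPM), and their ratios have exact (Clopper-Pearson, conditional) 95% intervals, for genes with 20 reads or more over both libraries. A call is 2-fold or more, and a count of 0 was set to a floor of 3 reads. With 1 library per group no p-value was made for a level. Allele shares needed at least 10 reads (in each library for Fisher's test). Calls used an adjusted p of 0.05. Calculations used Python 3.11.15, pandas 2.3.3 and SciPy 1.17.1, and were tested on simulated data. Gene positions and neighbours came from RefSeq GRCm38.p6, which matched 21088 of 21352 listed genes. The text names the 9 members, their nearest listed genes, the 3 genes most like the highest and lowest member (with at least 100 reads over the 5 libraries) and, of each pathway list, the 2 highest and 2 lowest, not all of which are printed. Plin3, Ticam1, Actg2 and the genes named in the plot of neighbours were chosen after their values were seen. The members and lists were chosen with earlier results of these data known. Alternatives varied the scaling, thresholds, IgG library and expected share.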

Additional observations from a re-analysis of the deposited data

Results flagged for a closer look

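Dnmt3a lay below IgG at E12.5 but not at E11.5. Its H3K27me3 to IgG ratio was 0.532 (0.46 to 0.61) at E12.5 and 1.14 (0.95 to 1.37) at E11.5, an interval that includes 1. With 1 library per group, the difference between the stages was not tested. The IgG level of Dnmt3a was 218 RPM at E12.5, against 136 RPM at E11.5 and 123 RPM at E13.5, and the E11.5 IgG library is male. Against E12.5 IgG, an alternative chosen after seeing the data, the E11.5 ratio was 0.71, and against E13.5 IgG the ratios were 0.94 at E12.5 and 1.27 at E11.5.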

How the results depend on the processing

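No paired analysis was possible because each group has 1 library with data, and for the same reason no library could be left out. No direction of a called value reversed. Of 103 counts of called members under an alternative, 78 equalled the reported count, 14 differed by at most 1.5 times and 11 by more. Dividing by the all-gene median ratio left 0 members lower at E12.5 and 0 at E11.5. A threshold of 1.5-fold gave 5 lower members at E12.5 and 3 lower members between IgG of E13.5 and E12.5. Against E13.5 IgG, 4 members were higher at E12.5. Of the allele calls, E11.5 H3K27me3 held 1 with an expected share of 50% and 0 with reads of each allele divided by 2. With the share of the own chromosome as expectation it held 2 again, but Tet3 lost its call (adjusted p = 0.12, exact binomial), and E11.5 IgG held 1. E13.5 IgG held 0 with reads divided by 2. Fisher's test of E12.5 H3K27me3 found 1 member against E13.5 IgG, and 1 against both female IgG libraries summed, an alternative chosen after seeing the data. The cause of these changes was not tested. Of 297 level ratios of single genes, 27 moved beyond their counting interval and 19 changed their 2-fold call, 8 of them within that interval: Tdg at E11.5 reached 0.71 and Uhrf1 at E11.5 reached 2.405 after division by the all-gene median. Of the allele tests of single genes, 23 kept their side and 7 calls were lost. Over all alternatives the ratio of Tet3 stayed between 8.55 and 13.1 at E12.5 and between 8.97 and 16.9 at E11.5, and that of Dnmt3l between 5.07 and 7.995 at E12.5. The IgG reads limit precision: Tdg had 28 and 31, and Dnmt3l 33 and 47, in the stage-matched libraries.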
